A study of Homo sapiens with 6 samples.

Results

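The 10 circadian clock genes ARNTL, CLOCK, PER1, PER2, PER3, CRY1, CRY2, NR1D1, NR1D2 and DBP were taken by symbol from a table of 58735 gene rows, and each symbol matched 1 row. The table covers 6 RNA-seq libraries of ACHN, an established line of human renal cancer cells. In 3 libraries the cells had received a small interfering RNA (siRNA) against OTUD1, a deubiquitinase, and in the other 3 a control siRNA. Nothing in the sources used here says whether the cells were synchronised or at what time after transfection RNA was collected, and 1 siRNA name against OTUD1 is given. Separate cultures are not stated for the replicates, and p-values therefore measure just the spread among these 6 libraries, which may be technical.

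The clock is a feedback loop of transcription. CLOCK and ARNTL (also called BMAL1) form a dimer that binds E-boxes and drives the PER, CRY, NR1D and DBP genes. PER and CRY proteins then enter the nucleus and repress that dimer, while NR1D1 and NR1D2 (the REV-ERB receptors) repress ARNTL through ROR elements. DBP activates genes with D-boxes, among them PER genes, and NFIL3 represses them. In kidney, clock genes are known for daily rhythms of tubular salt handling.

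OTUD1 mRNA was 3.22-fold lower in the OTUD1 siRNA libraries (log2 fold change -1.69, SE 0.24). That value rests on few counts, 61, 67 and 65 in the control libraries and 28, 17 and 25 after OTUD1 siRNA. Total counts were 16753495 to 18993534 per control library and 17243433 to 21013530 per OTUD1 siRNA library, and 15244 genes passed the filter on low counts, all 10 clock genes among them. Levels are counts scaled to library size (CPM) after TMM scaling, a scaling between libraries by the trimmed mean of log ratios. The renal markers PAX8 and KRT8 were at 642 and 4112 CPM in the control group and 409 and 1957 CPM after OTUD1 siRNA, and the summed level of 8 renal and carcinoma markers was 7710 to 7916 CPM against 4025 to 4123 CPM. Most of that sum was KRT8 and KRT18, the latter at 1604 and 726 CPM. Of the 8 markers, 7 were lower and 1, EPCAM, was higher (log2 fold change 0.14), a call kept in 9 of 15 other settings. Over all genes tested, 31.1% were lower and 29.3% higher. Of 6 leukocyte markers, PTPRC, CD3E and LYZ had 0 counts in all 6 libraries, and the list summed to 1.49 to 1.63 against 1.24 to 1.89 CPM. CD8A, with 9 counts in the control group and 39 after OTUD1 siRNA, passed as higher (not after quantile normalization), and CD14, with 72 and 53, did not pass. The 4 endothelial markers, with KDR at 0, summed to 0.188 to 0.934 against 0.496 to 0.821 CPM. The 4 fibroblast markers summed to 284 to 294 against 143 to 153 CPM, nearly all of it THY1, which fell (log2 fold change -1.07). PDGFRB rose (0.80), COL1A1 was at 0.37 and did not pass, and COL3A1 had 0 and 6 counts. The part of these markers in the results below was not tested. In bulk RNA, fewer cells of a type and less RNA per cell cannot be told apart.

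Promoter sequences were read to show where the letters of E-boxes, D-boxes, ROR elements and cAMP elements occur at these genes. RefSeq (GRCh38.p14) windows of 300 bases around annotated gene starts were found for all 10 genes, ARNTL under its newer symbol BMAL1, with 1 or 2 windows per gene. Both strands were searched for the E-box CACGTG, its variant CACGTT, the D-box spellings TTATGCAA, TTATGTAA and TTACGTAA, the ROR element TAGGTCA and the cAMP element TGACGTCA. CACGTG was present at 2 of the 10 genes, PER1 and NR1D2, and at 8.77% of all 27305 genes with a window. CACGTT was present at 5, CLOCK, PER2, CRY1, CRY2 and NR1D1, and at 6.44% of all genes. A D-box spelling was present at 4, all 3 PER genes and NR1D2, and at 2.3% of all genes. The ROR element was present at ARNTL and CRY2 and at 2.29% of all genes, and TGACGTCA at none of the 10 and 2.25% of all genes. The shorter form TGACGTC was present at NR1D2 and at 4.2% of all genes. None of these letters was found in the DBP window. The spellings were chosen after the windows had been read, and a match is a run of letters, not evidence that a factor binds there.

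The stretches below hold matches at the PER and NR1D genes, which mostly fell, at the CRY genes, which rose, and at ARNTL. The variant CACGTT occurs both at genes that fell and at the CRY genes. The CACGTT match of CLOCK and the TGACGTC match of NR1D2 are not printed. Each is 30 bases in the direction of the gene, and capitals mark the match. AACGTG and TTACATAA are CACGTT and TTATGTAA read on the other strand.
PER1 E-box, chr17:8152560-8152589, minus strand: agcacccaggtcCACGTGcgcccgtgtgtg
PER1 D-box, chr17:8152416-8152445, minus strand: agtgcccggcaTTATGCAAcccgcctcccc
PER2 E-box variant, chr2:238288790-238288819, minus strand: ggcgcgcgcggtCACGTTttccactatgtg
PER2 D-box, chr2:238288595-238288624, minus strand: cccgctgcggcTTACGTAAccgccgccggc
PER3 D-box, chr1:7784103-7784132, plus strand: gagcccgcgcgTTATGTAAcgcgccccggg
NR1D2 D-box, chr3:23945916-23945945, plus strand: gtgacgcggcaTTACATAAtgggcgctgag
NR1D2 first E-box, chr3:23945954-23945983, plus strand: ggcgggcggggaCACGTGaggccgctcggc
NR1D2 second E-box, chr3:23946004-23946033, plus strand: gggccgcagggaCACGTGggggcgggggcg
NR1D1 E-box variant, chr17:40100740-40100769, minus strand: gcgcaagagctcAACGTGccggctgttgga
CRY1 E-box variant, chr12:107093621-107093650, minus strand: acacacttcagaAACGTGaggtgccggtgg
CRY2 E-box variant, chr11:45847275-45847304, plus strand: acacatggtaggAACGTGagggggcgggcc
ARNTL ROR element, chr11:13277809-13277838, plus strand: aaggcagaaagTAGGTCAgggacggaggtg
CRY2 ROR element, chr11:45847399-45847428, plus strand: ttgcggcgtcaTAGGTCActgggcgggcta

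The question put to these genes was whether the clock transcripts differ between OTUD1 siRNA and control siRNA. CLOCK, PER1, PER2, NR1D1, NR1D2 and DBP fell, by 1.25-fold to 1.73-fold, while CRY1 and CRY2 rose 1.21-fold and 1.31-fold. ARNTL and PER3 did not pass the test. The counts are thus 6 of 10 lower and 2 of 10 higher (edgeR quasi-likelihood test, Benjamini-Hochberg adjusted p under 0.05 over all 15244 genes). Over all genes tested, 60.4% were called, 31.1% as lower and 29.3% as higher, so that a call by itself is common in this comparison. The median log2 fold change, OTUD1 siRNA over control siRNA, was -0.48 for the 10 genes and 0.01 for all genes. In 7 of the 10 the groups did not overlap, against 64.5% of all genes. All OTUD1 siRNA libraries lay below all controls for 5 of them and for 33% of all genes, and above for 2 and for 31.5% of all genes. All 10 kept the sign of their change under each of the 15 other settings that tested them. DBP kept its call in 6 of 14 and the other 7 called genes kept theirs in 15 of 15.

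**Figure D1:**
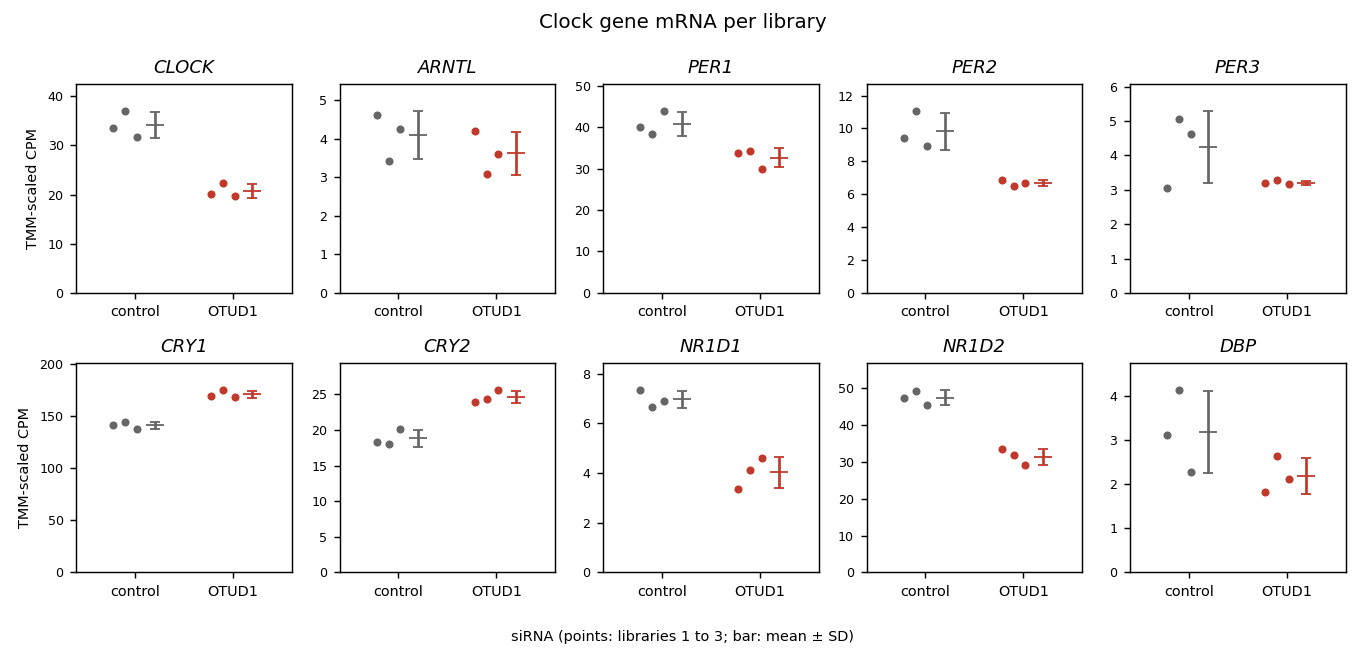
TMM-scaled CPM of the 10 clock genes (vertical axes from 0, a scale per gene) in each of 3 control siRNA libraries (grey) and 3 OTUD1 siRNA libraries (red), with the mean ± SD beside the points. The groups separate for CLOCK, PER1, PER2, CRY1, CRY2, NR1D1 and NR1D2, and overlap for ARNTL, PER3 and DBP.

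Of the 2 activators, CLOCK fell and ARNTL did not pass. CLOCK (ENSG00000134852.14; hg38 chromosome 4, 55427903 to 55547138, minus strand) encodes the histone acetyltransferase-like partner of the dimer. Its CPM values were 33.5, 37.0 and 31.8 in the control libraries and 20.1, 22.4 and 19.7 after OTUD1 siRNA. Every OTUD1 siRNA library lay below every control library. The mean went from 34.1 ± 2.66 to 20.8 ± 1.47 CPM (SD, n = 3 each), 1.64-fold lower (log2 fold change -0.72, SE 0.075; adjusted p = 2.17e-09 by edgeR).

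ARNTL (ENSG00000133794.17; chromosome 11, 13276652 to 13387266, plus strand), the other subunit, had CPM values of 4.63, 3.41 and 4.26 in the control libraries and 4.19, 3.08 and 3.61 after OTUD1 siRNA. The values interleaved. These levels rest on 62 to 92 counts per library. The log2 fold change was -0.17 (SE 0.18; adjusted p = 0.437 by edgeR), and over the other settings it ran from -0.30 to -0.04. A change of that size was not detectable at this depth.

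The PER genes encode the scaffold of the repressor complex, and PER1 and PER2 fell. PER1 (ENSG00000179094.15; chromosome 17, 8140472 to 8156506, minus strand) had CPM values of 40.2, 38.3 and 44.0 in the control libraries and 33.9, 34.3 and 29.9 after OTUD1 siRNA. All OTUD1 siRNA libraries lay below all controls. PER1 was 1.25-fold lower (log2 fold change -0.32, SE 0.067; adjusted p = 0.000162 by edgeR). PER1 also answers to cAMP and glucocorticoid signals as an immediate early gene.

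PER2 (ENSG00000132326.11; chromosome 2, 238244038 to 238290102, minus strand) had CPM values of 9.45, 11.1 and 8.93 in the control libraries and 6.84, 6.50 and 6.67 after OTUD1 siRNA. The OTUD1 siRNA libraries sat close together and below all controls. PER2 was 1.47-fold lower (log2 fold change -0.56, SE 0.12; adjusted p = 0.000218 by edgeR).

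PER3 (ENSG00000049246.14; chromosome 1, 7784320 to 7845177, plus strand), the member of the family least needed for rhythm, had CPM values of 3.07, 5.07 and 4.61 in the control libraries and 3.19, 3.28 and 3.17 after OTUD1 siRNA. Control replicate 1 lay below all 3 OTUD1 siRNA libraries and the other 2 controls above them. The log2 fold change was -0.41 (SE 0.19; adjusted p = 0.0619 by edgeR). Without control siRNA replicate 1 it was -0.59 with an adjusted p of 0.00677, and over all other settings the adjusted p ran from 0.0162 to 0.299. Exons of UTS2, on the opposite strand, overlap 868 bases of the principal PER3 transcript. UTS2 was not among the genes tested. With the strand setting not stated, the PER3 counts are uncertain to the extent of that overlap.

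The cryptochromes went the other way. CRY1 (ENSG00000008405.11; chromosome 12, 106991364 to 107093829, minus strand) encodes the strongest repressor of the dimer. Its CPM values were 142, 144 and 138 in the control libraries and 170, 175 and 169 after OTUD1 siRNA. All OTUD1 siRNA libraries lay above all controls, with a spread of about 3 CPM in either group. CRY1 went from 141 ± 3.2 to 171 ± 3.23 CPM (SD, n = 3 each), 1.21-fold higher (log2 fold change 0.28, SE 0.037; adjusted p = 1.95e-07 by edgeR).

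CRY2 (ENSG00000121671.11; chromosome 11, 45847118 to 45883248, plus strand), its paralog, had CPM values of 18.3, 18.1 and 20.2 in the control libraries and 23.9, 24.4 and 25.6 after OTUD1 siRNA. Again the groups did not overlap. CRY2 was 1.31-fold higher (log2 fold change 0.38, SE 0.078; adjusted p = 0.000102 by edgeR). CRY1 and CRY2 thus rose while CLOCK, PER2 and NR1D1, which carry the same E-box variant CACGTT, fell. Whether this element had a part in either change was not tested.

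NR1D1 and NR1D2, the nuclear receptors that repress ARNTL, both fell. NR1D1 (ENSG00000126368.5; chromosome 17, 40092787 to 40100725, minus strand) had CPM values of 7.32, 6.66 and 6.89 in the control libraries and 3.37, 4.12 and 4.61 after OTUD1 siRNA. It was 1.73-fold lower (log2 fold change -0.79, SE 0.15; adjusted p = 4.09e-05 by edgeR), and no library of one group reached the other. THRA, on the opposite strand, shares 263 bases, 9.49% of the NR1D1 transcript, and was at 15.3 ± 1.46 and 16.6 ± 0.808 CPM (SD, n = 3 each; log2 fold change 0.11, adjusted p = 0.303 by edgeR). Whether the counting used strand is not stated, so the NR1D1 counts are uncertain to the extent of that overlap.

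NR1D2 (ENSG00000174738.12; chromosome 3, 23945260 to 23980618, plus strand) had CPM values of 47.4, 49.3 and 45.4 in the control libraries and 33.4, 31.7 and 29.1 after OTUD1 siRNA. Its groups were far apart relative to their spread. NR1D2 was 1.51-fold lower (log2 fold change -0.59, SE 0.063; adjusted p = 2.84e-09 by edgeR). ARNTL, whose promoter window holds a match to the ROR element, had a log2 fold change of -0.17 and did not pass, as given above. Whether NR1D1 or NR1D2 acted through that match was not tested.

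DBP (ENSG00000105516.10; chromosome 19, 48630030 to 48637438, minus strand) encodes a PAR-domain activator of D-box genes and is itself a classic output of the dimer. Its CPM values were 3.13, 4.13 and 2.28 in the control libraries and 1.82, 2.63 and 2.11 after OTUD1 siRNA. The groups overlapped, and the values rest on 38 to 75 counts per library. The log2 fold change was -0.55 (SE 0.23; adjusted p = 0.0439 by edgeR), 1.46-fold lower. Without control siRNA replicate 2 it was -0.30 (adjusted p = 0.335), and the call was also lost without control siRNA replicate 1 (-0.56, adjusted p = 0.0664), or OTUD1 siRNA replicate 1 (-0.42, 0.178) or 3 (-0.52, 0.0893). SPHK2 exons on the opposite strand overlap 661 bases, 29.6% of the DBP transcript. SPHK2 was at 19.2 ± 2.15 and 21.9 ± 0.898 CPM (SD, n = 3 each; log2 fold change 0.19, adjusted p = 0.0551 by edgeR), well above DBP. With the strand setting not stated, the DBP counts are uncertain to the extent of that overlap.

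**Figure D2:**
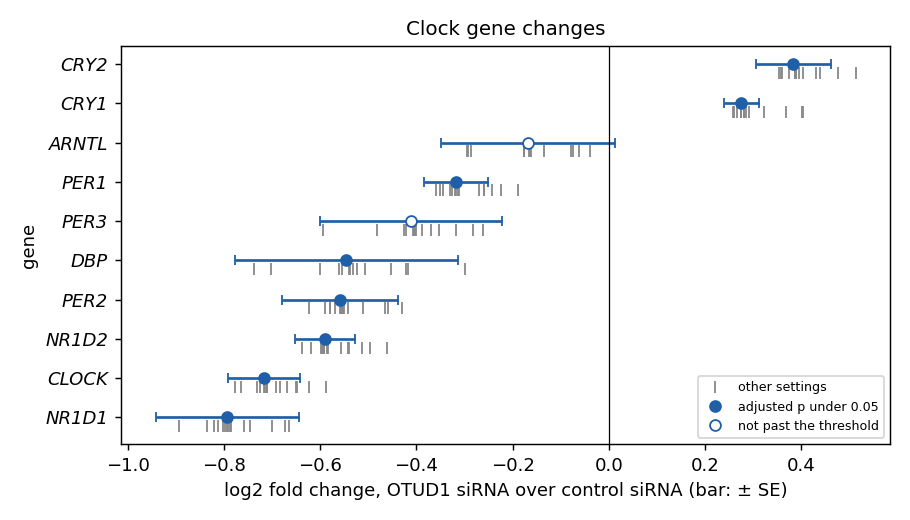
Log2 fold change of each clock gene, OTUD1 siRNA over control siRNA, with its SE (horizontal axis), ordered by size on the vertical axis. Filled points passed the test, open points did not, and grey ticks give the value under each other setting. CRY1 and CRY2 lie to the right of 0 and the other 8 to the left in every setting that tested them.

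Levels between genes were compared per kilobase of the principal GENCODE 29 transcript. CRY1 was the most abundant of the 10, at 43.2 ± 0.98 CPM per kilobase in the control group and 52.3 ± 0.99 after OTUD1 siRNA (SD, n = 3 each). In the control group NR1D2 (9.01) and PER1 (8.67) followed and overlapped between libraries. Next came CRY2 (4.48), CLOCK (3.31) and NR1D1 (2.51), each apart from its neighbours. PER2 (1.54), ARNTL (1.48) and DBP (1.43) overlapped, and PER3 was lowest at 0.685 CPM per kilobase. After OTUD1 siRNA the order became CRY1, PER1 (6.94), NR1D2 (5.97), CRY2 (5.86), CLOCK (2.01), NR1D1 (1.46), ARNTL (1.31), PER2 (1.04), DBP (0.982) and PER3 (0.518). There NR1D2 and CRY2 overlapped, as did NR1D1 with ARNTL and DBP with both PER2 and ARNTL.

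**Figure D3:**
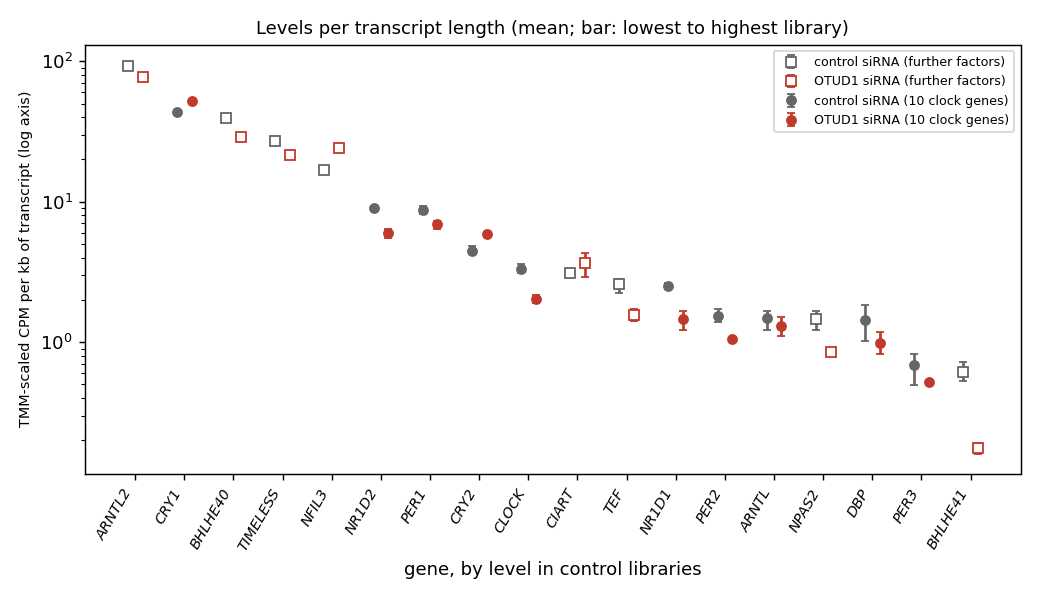
TMM-scaled CPM per kilobase of transcript (log axis) for the 10 clock genes (filled circles) and 8 further clock factors (open squares), ordered by their mean in the control libraries. Points are means of 3 libraries and bars run from the lowest to the highest library. ARNTL2 stands at 93.1 and ARNTL at 1.48 CPM per kilobase in the control group.

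Ratios of paralog or partner counts within a library do not depend on the scaling between libraries. The ratio of CLOCK to ARNTL counts was 8.51 ± 2.02 in the control group and 5.85 ± 1.29 after OTUD1 siRNA (SD, n = 3 each). CRY1 to CRY2 was 7.52 ± 0.617 and 6.95 ± 0.306. PER1 to PER2 was 4.21 ± 0.73 and 4.90 ± 0.39, PER3 to PER2 was 0.433 ± 0.0983 and 0.482 ± 0.0195, and NR1D1 to NR1D2 was 0.147 ± 0.0105 and 0.130 ± 0.0287. In all 5 pairs the libraries of the 2 groups overlapped, and adjusted p over the 5 was 0.5 to 0.6 (two-sided exact permutation test, 3 libraries against 3, which cannot go below 0.1). With 3 libraries a group this test cannot pass 0.05 for a difference of any size, so the ratios stand as a description.

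Other transcription factors of the loop were taken from a list of 12, which also holds TIMELESS, a replication fork protein in mammals. Of the 8 with enough counts, 6 were lower and 1 higher, against 31.1% lower and 29.3% higher among all genes. The median log2 fold change was -0.38, and -0.25 with library totals, where that of all genes was 0.13. HLF had 0 counts in all libraries, and RORA and RORB summed to 10 and 5 counts in the control group and 27 and 3 after OTUD1 siRNA. RORA and RORB, activators of ARNTL, thus had too few counts to be tested.

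NPAS2, which can take the place of CLOCK in the dimer, had CPM values of 4.88, 6.72 and 6.07 in the control libraries and 3.37, 3.52 and 3.33 after OTUD1 siRNA. It was 1.73-fold lower (log2 fold change -0.79, SE 0.16; adjusted p = 0.000115 by edgeR), with no overlap. ARNTL2, the paralog of ARNTL and named here after its values were seen, was at 213 ± 5.64 and 176 ± 3.35 CPM (SD, n = 3 each; log2 fold change -0.28, SE 0.035; adjusted p = 7.53e-08 by edgeR). Per kilobase of transcript it was at 93.1 CPM in the control group against 1.48 for ARNTL. By mRNA, the ARNTL-type subunit of these cells was thus mostly ARNTL2, in both groups.

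The factors that bind D-boxes moved in both directions. NFIL3, the D-box repressor, had CPM values of 35.0, 34.5 and 36.3 in the control libraries and 49.8, 50.1 and 51.1 after OTUD1 siRNA. It was 1.43-fold higher (log2 fold change 0.51, SE 0.056; adjusted p = 5.81e-09 by edgeR). TEF, a D-box activator like DBP, had CPM values of 9.83, 12.3 and 11.9 in the control libraries and 7.61, 6.21 and 6.67 after OTUD1 siRNA. It was 1.66-fold lower (log2 fold change -0.73, SE 0.12; adjusted p = 6.7e-06 by edgeR). All OTUD1 siRNA libraries lay above all controls for NFIL3 and below all for TEF. Of the 4 genes with a D-box spelling, PER1, PER2 and NR1D2 fell and PER3 did not pass. CLOCK, NR1D1 and DBP, with no such spelling in their windows, fell as well, and 31.1% of all genes were lower. Whether NFIL3 or TEF had a part in these changes was not tested.

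BHLHE41, an E-box repressor also called DEC2, fell from 2.35 ± 0.365 to 0.678 ± 0.0609 CPM (SD, n = 3 each), 3.43-fold (log2 fold change -1.78, SE 0.3; adjusted p = 8.45e-06 by edgeR). Its summed counts were 121 in the control group and 41 after OTUD1 siRNA. BHLHE40, its paralog, named after its values were seen, was at 136 ± 0.426 and 101 ± 1.17 CPM (SD, n = 3 each). That was 1.35-fold lower (log2 fold change -0.43, SE 0.038; adjusted p = 8.68e-11 by edgeR). Per kilobase of transcript, the control group had 39.2 CPM of BHLHE40 and 0.612 CPM of BHLHE41. CIART, a further repressor of the dimer and named after its values were seen, had a log2 fold change of 0.24 (SE 0.15; adjusted p = 0.163 by edgeR).

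**Figure D4:**
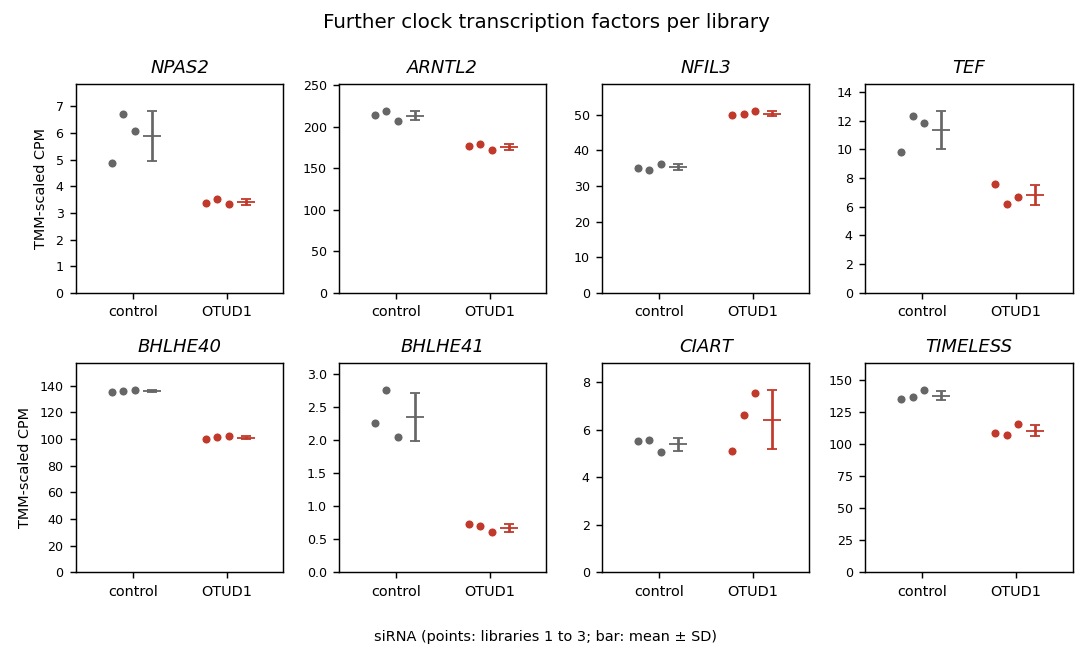
TMM-scaled CPM of 8 further clock factors (vertical axes from 0, a scale per gene) in each control siRNA (grey) and OTUD1 siRNA (red) library, with the mean ± SD. NFIL3 was higher in every OTUD1 siRNA library, CIART overlapped, and the other 6 were lower in every OTUD1 siRNA library.

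Enzymes that modify clock proteins set the pace of the loop by phosphorylation and degradation. Of 20 tested, 14 were lower and 4 higher, with a median log2 fold change of -0.21, against 31.1% and 29.3% of all genes. With library totals in place of TMM, the counts were 7 lower and 6 higher and the median -0.08, and with upper quartile scaling 10, 6 and -0.11. After quantile normalization they were 10, 5 and -0.10. SIAH2, a ubiquitin ligase, rose 1.64-fold (log2 fold change 0.71, SE 0.06), and the phosphatase catalytic subunit PPP1CB rose 1.21-fold. Its sister PPP1CC fell 1.53-fold (-0.61, SE 0.035), and FBXW11, a ubiquitin ligase subunit that recognises phosphorylated PER proteins, fell 1.4-fold (-0.48, SE 0.04).

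Calls of 2 genes in that list rested on few counts. USP2, a deubiquitinase, fell 2.19-fold (log2 fold change -1.13, SE 0.38), and lost its call without control siRNA replicate 2 (-1.01) or OTUD1 siRNA replicate 2 (-0.82). FBXL21 rose 1.47-fold (0.55, SE 0.21), and lost its call without control siRNA replicate 1 (0.52) or OTUD1 siRNA replicate 3 (0.36), after quantile normalization (0.28) and with DESeq2 (0.56).

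Of 14 cofactors of the activators and repressors, 11 were lower and 2 higher, against 31.1% and 29.3% of all genes, with a median of -0.33. The median was -0.20 with library totals (0.13 for all genes), and 9 were lower after quantile normalization. With a minimum mean of 5 CPM, which all 14 passed, 11 were lower and 2 higher, against 3895 and 3891 of 11041 genes. NCOR1, the corepressor that REV-ERB receptors recruit, fell 1.79-fold from 172 ± 9.72 to 96.2 ± 2.47 CPM (SD, n = 3 each; log2 fold change -0.84, SE 0.042; adjusted p = 2.45e-16 by edgeR). The deacetylase SIRT1 fell 1.61-fold and the corepressor SIN3A 1.5-fold. HDAC3, the deacetylase that works with NCOR1, had a log2 fold change of 0.17 (SE 0.061). Its call was lost on leaving out control siRNA replicate 1 (0.15) or 2 (0.14), or OTUD1 siRNA replicate 2 (0.15) or 3 (0.13). The demethylase KDM5A rose 1.2-fold (0.26, SE 0.051).

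Of 14 genes of signals that reach PER1 and PER2, 6 were lower, 3 higher and 5 not called, with a median of -0.03. The share called was close to the 60.4% of all genes. With library totals 3 were lower and 5 higher, with upper quartile scaling 4 and 4, and the median was 0.10 and 0.06. The median of all genes was 0.13 and 0.10 under these scalings. With a minimum mean of 5 CPM the median was 0.01 for the list and 0.007 for all genes. HSF1, the heat shock factor, fell 1.56-fold, the CREB coactivator CRTC1 1.37-fold and KLF9, a glucocorticoid-responsive factor, 1.42-fold. CREM and ATF1, of the CREB family, rose 1.58-fold and 1.29-fold. CRTC3 rose 1.13-fold, a call lost on leaving out control siRNA replicate 1 (a log2 value of 0.17) or 3 (0.16), or OTUD1 siRNA replicate 1 (0.17) or 2 (0.17), and with no filter (0.17). KLF9 lost its call without control siRNA replicate 2 (-0.46), without OTUD1 siRNA replicate 2 (-0.47) or 3 (-0.41), with upper quartile scaling (-0.41), with library totals (-0.38) and with DESeq2 (-0.51).

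Of 14 tested output genes often described as clock controlled, 6 were lower, 3 higher and 5 not called. This share, too, was close to the 60.4% called over all genes. The median was -0.12, and 0.01 with library totals, where that of all genes was 0.13. The kinase SGK1, which acts on tubular sodium transport, rose 1.5-fold from 143 ± 11.1 to 214 ± 3 CPM (SD, n = 3 each). NAMPT, of NAD synthesis, rose 1.33-fold. The Krüppel-like factors KLF11 and KLF10 fell 1.75-fold and 1.52-fold.

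**Figure D5:**
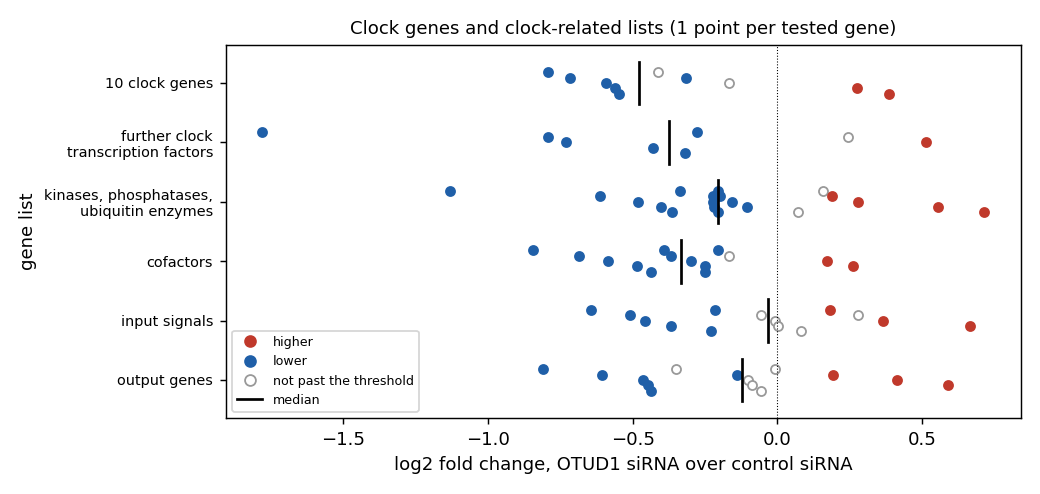
Log2 fold change, OTUD1 siRNA over control siRNA (horizontal axis), of each tested gene in the 10 clock genes and 5 related lists (vertical axis), with the median of each list as a black bar. Red and blue points passed as higher and lower, open points did not pass. The medians lie between -0.48 for the clock genes and -0.03 for the input signals.

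Genes whose levels over the 6 libraries lay nearest to a clock gene were found by Euclidean distance between log2 values centred on the control mean. Nearest to CRY2, the called clock gene with the largest rise, were INTS9 (distance 0.069), NOXA1 (0.081) and FNTA (0.083). Nearest to NR1D1, the called one with the largest fall under TMM scaling with all libraries, were EME1 (0.157), RNF144B (0.158) and BCL2L11 (0.188). They were chosen for this likeness, so a similar size of change follows from the choice.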

How the data were processed

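Per the labels' protocols, Trizol was used for RNA extraction and a directional NEBNext Ultra kit for the libraries. The submitters' processing notes name the build hg38. No source used here names the aligner, counter, strand setting or annotation. The deposited table, although named for FPKM, holds whole-number counts per gene symbol, which the authors left unscaled as far as the totals show.

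The counts were tested with edgeR 4.0.16 (R 4.3.3): filterByExpr (minimum count 10 in 3 libraries, minimum total 15), TMM, glmQLFit and glmQLFTest, two-sided, threshold 0.05. The SE is the absolute log2 fold change over the root of its F statistic. A count of 3 corresponds to 0.137 to 0.188 CPM. Chi-square per gene averaged 2.05 to 3.8 between replicates, above sampling noise, so none was counted as a copy. On data simulated for OTUD1 siRNA against control siRNA (15011 genes), the fit found 73% of simulated log2 changes of 0.5 and 94.8% of those of 1, and made 7 false calls. Just 100 and 97 of these genes were changed by those sizes, equally up and down, with a dispersion shared by all genes. In the real comparison 60.4% of genes were called, so these rates may not carry over to it. Coordinates and transcript lengths (the longest principal transcript) come from GENCODE 29.

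The members and lists were chosen with earlier results of these data known. Named genes were OTUD1, the 10 clock genes and up to 3 called members of each list in each direction. Some genes that this rule takes are not reported here. Alternatives covered the filter, the scaling, DESeq2 1.42.0, limma 3.58.1, the replicate block and each replicate left out. Figures were drawn with matplotlib 3.10.9.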

Additional observations from a re-analysis of the deposited data

How the results depend on the processing

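Every clock gene kept the direction of its change in each of the 15 other settings that tested it (14 for ARNTL, PER3 and DBP, which a minimum mean of 5 CPM removes). CLOCK, PER1, PER2, CRY1, CRY2, NR1D1 and NR1D2 kept their calls in all 15. DBP lost its call in 8 of 14, among them upper quartile scaling (-0.45), library totals (-0.42), DESeq2 (-0.54) and limma-trend (-0.51). PER3 gained one in 2 of 14, without control siRNA replicate 1 (-0.59) and after quantile normalization (-0.48). With each replicate left out, 5 to 6 clock genes were called lower and 2 higher, and 8481 to 8961 genes were called in all.

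Library totals moved the median log2 fold change of all genes by over 0.1, to 0.13. The share of called genes that were higher went from 48.4% to 59.8% with upper quartile scaling and 64.2% with library totals. PER1 was then at its smallest size, -0.19, and still passed (adjusted p = 0.0157).

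Libraries of the same number did not deviate together in every pair (correlations of 0.0251, 0.133 and -0.00155), so the numbers were not taken to pair the samples, and not every library correlated best with its own number. With the replicate number as a block, 9275 genes were called, 2 clock genes higher and 6 lower. DBP, PER3 and ARNTL have 38 to 92 counts per library, which limits what could be detected for them.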
